A study of Mus musculus with 8 samples.

Results

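Fatty acid synthesis in liver was followed through 10 genes: the transcription factor genes Srebf1 and Mlxipl and 8 of their lipogenic targets, Acly, Me1, Acaca, Fasn, Elovl6, Scd1, Thrsp and Pnpla3. They were chosen by name, with earlier results of these data known. Their probes were taken as every probe whose transcript accession belongs to 1 of these symbols. This gave 16 of the 55681 non-control probes on the array and 10 of the 14062 genes that could be tested. All 16 probes were well above background on all 8 arrays.

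Liver RNA was hybridized in a single colour (Cy3) to Agilent mouse arrays, 1 mouse per array. The study asked how livers lacking RAP1, a telomere-bound protein encoded by Terf2ip, differ in gene expression before obesity sets in. Samples came from 4 Rap1 -/- mice and 4 wild-type mice, all aged 10 weeks and of a mixed C57BL6/129SV background (90% and 10%), with each mouse labelled a biological replicate. The Rap1 -/- mice lack the gene in every tissue, because a Cre transgene driven by the EIIa promoter deleted the floxed allele in the early embryo and was afterwards bred out. The labels give neither sex nor feeding state. The study describes its young mice as females and reports work on both fed and fasted animals, so the nutritional state of these livers is not known here.

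Lipogenesis turns excess carbohydrate into fatty acids. Insulin acts largely through SREBP1c, a product of Srebf1 that is released from a membrane-bound precursor, and glucose acts through ChREBP, the product of Mlxipl. Both factors bind the promoters of the enzymes that make, lengthen and desaturate fatty acids, and these genes are known in liver for strong swings between fasting and feeding. Because processing of the precursor controls SREBP1c, its mRNA level does not measure its activity.

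The genes were read first in the DNA around their starts, since the members are known targets of shared factors and their levels moved together between mice. RefSeq windows on the GRCm38.p6 build, from 250 bases before to 50 bases after an annotated start, were found for 9 of the 10 genes, 13 windows in all. Scd1 is named only. Windows were searched on both strands for the E-box CACGTG, the CCAAT box (CCAAT, or ATTGG on the other strand), the GC box (GGGCGG, or CCGCCC) and an SRE-like site (TCACNCCAC). Capitals below mark every match, and overlapping matches run together. The windows are those of the regulator Srebf1, at the most downstream of its 3 annotated starts, of Fasn and Thrsp, whose levels went with Srebf1 across mice, and of Pnpla3, whose level did so least.
Srebf1, chr11:60210422-60210721, minus strand: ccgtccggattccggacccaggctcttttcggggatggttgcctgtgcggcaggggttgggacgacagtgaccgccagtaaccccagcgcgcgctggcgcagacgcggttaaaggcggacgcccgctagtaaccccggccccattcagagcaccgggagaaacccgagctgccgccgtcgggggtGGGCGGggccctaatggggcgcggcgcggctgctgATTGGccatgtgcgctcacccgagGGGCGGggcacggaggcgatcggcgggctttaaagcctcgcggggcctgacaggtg
Fasn, chr11:120824498-120824797, minus strand: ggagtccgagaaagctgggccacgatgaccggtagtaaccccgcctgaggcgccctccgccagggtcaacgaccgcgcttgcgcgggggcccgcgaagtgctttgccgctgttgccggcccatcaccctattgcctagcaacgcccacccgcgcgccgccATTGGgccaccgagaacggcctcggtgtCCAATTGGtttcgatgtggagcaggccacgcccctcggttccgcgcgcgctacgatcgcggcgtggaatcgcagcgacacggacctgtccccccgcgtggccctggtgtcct
Thrsp, chr7:97417501-97417800, minus strand: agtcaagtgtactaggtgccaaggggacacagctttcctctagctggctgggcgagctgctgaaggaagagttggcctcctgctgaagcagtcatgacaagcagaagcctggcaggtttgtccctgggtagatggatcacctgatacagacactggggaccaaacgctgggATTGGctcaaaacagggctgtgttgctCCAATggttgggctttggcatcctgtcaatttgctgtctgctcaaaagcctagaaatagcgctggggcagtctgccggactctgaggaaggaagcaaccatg
Pnpla3, chr15:84167566-84167865, plus strand: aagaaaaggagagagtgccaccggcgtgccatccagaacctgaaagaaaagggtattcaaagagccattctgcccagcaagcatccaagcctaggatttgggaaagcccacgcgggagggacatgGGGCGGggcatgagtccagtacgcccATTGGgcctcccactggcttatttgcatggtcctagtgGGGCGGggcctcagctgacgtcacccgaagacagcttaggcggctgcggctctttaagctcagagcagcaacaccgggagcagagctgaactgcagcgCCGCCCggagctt

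The Srebf1 window holds a CCAAT box that begins 30 bases upstream of the start, with GC boxes beginning 65 and 6 bases upstream. Fasn has CCAAT boxes 90, 62 and 59 bases upstream, the last pair overlapping on opposite strands, and Thrsp has them 79 and 52 bases upstream. Pnpla3 has 1 CCAAT box 99 bases upstream between GC boxes at 125 and 61 bases, and a further GC box after the start. The windows of Acaca and Elovl6, whose levels also went with Srebf1, held no match to any of the 4 motifs. Each of these genes was searched at 1 annotated start only, and any other start they use was not read. Over the 13 windows, 8 held a CCAAT box, 6 a GC box, 1 (Mlxipl) an E-box and 1 (also Mlxipl) an SRE-like site. Among all 32851 windows of the same length, the shares were 37.4% for the CCAAT box, 35.7% for the GC box, 7.15% for the E-box and 1.24% for the SRE-like site. A match is a run of letters and not a shown binding site. No match means only that these letters are not in the window.

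The 8 arrays came from 2 slides, each with 2 Rap1 -/- and 2 wild-type arrays, so slide and genotype were balanced, whereas the position on the slide and genotype cannot be told apart. The 75th percentile of the signal was 220 to 227 in Rap1 -/- arrays and 179 to 209 in wild-type arrays. Levels below are log2 of the processed signal minus the log2 of that percentile, so a value of 0 is a signal equal to it, and they are not compared between probes. Terf2ip checked the labels: probe A_52_P381806 was well above background on 0 of the 4 Rap1 -/- arrays and on all 4 wild-type arrays (0.03 to 0.23). Its other probe, A_55_P2094079, read 0.03 to 0.44 in Rap1 -/- livers against -1.12 to -0.69 in wild-type livers.

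Across all 14062 genes, 2 passed an adjusted p of 0.05 (limma, Benjamini-Hochberg), or 0.0142% of genes, and both were lower in Rap1 -/- livers. Neither was Terf2ip, since A_55_P2094079, its probe with the higher mean, stood for it and read higher in Rap1 -/- livers. None of the 10 lipogenic genes passed, and the smallest adjusted p among them was 0.904 (limma). At an unadjusted p of 0.05, 0 of the 10 passed, against 6.36% of all genes. The genotypes overlapped in level for all 10, while they did not overlap for 4.31% of all genes. Estimates were above 0 for 6 of the 10 and below 0 for 4, with a median log2 fold change of 0.19, beside 0.02 over all genes. The plot of each gene by genotype shows this overlap.

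**Figure D1:**
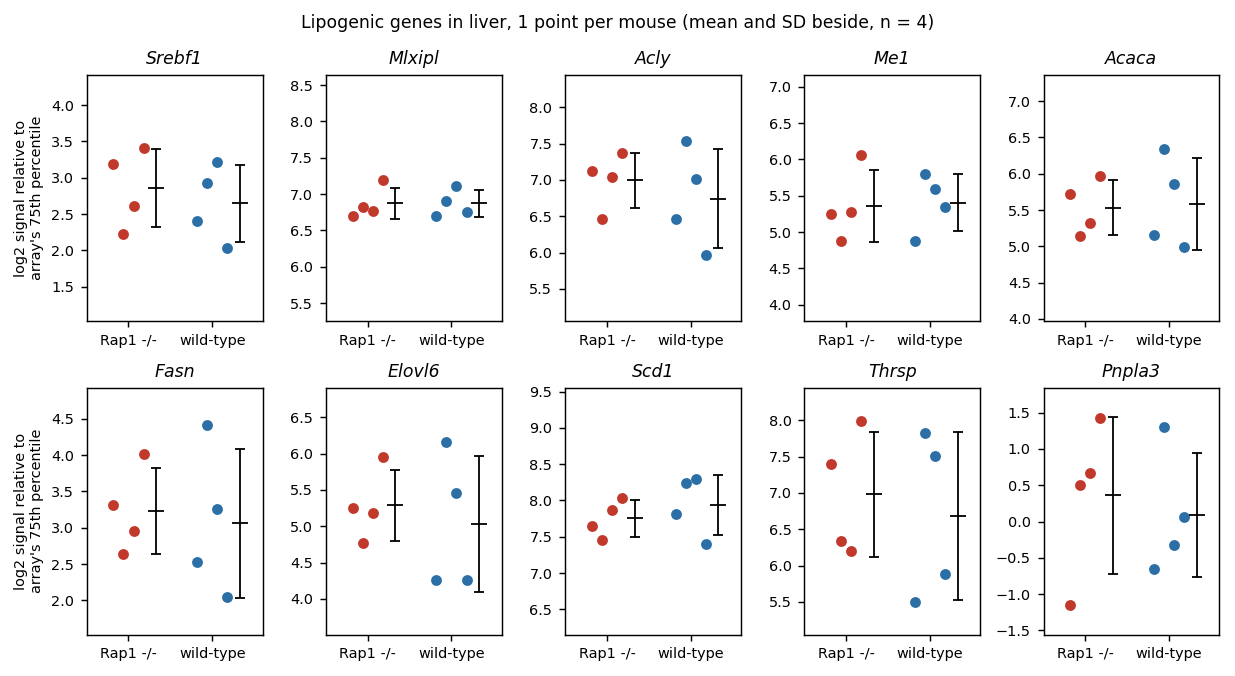
Log2 signal of the 10 lipogenic genes relative to the 75th percentile of each array, 1 point per mouse, with Rap1 -/- left and wild-type right in each panel and the mean and SD (n = 4) beside the points. All panels span the same log2 range, and the points of the genotypes overlap in every one.

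Srebf1 encodes SREBP1 and is itself a target of its own product and of the nuclear receptor LXR. Its log2 level was 3.19, 2.22, 2.61 and 3.41 in Rap1 -/- mice 1 to 4, against 2.41, 2.93, 3.22 and 2.04 in wild-type mice 1 to 4. Both genotypes held mice with a high and mice with a low level, and the lowest and highest of all 8 were wild-type mouse 4 and Rap1 -/- mouse 4. The mean was 2.86 ± 0.54 in Rap1 -/- and 2.65 ± 0.53 in wild-type livers (SD, n = 4 each), a log2 fold change of 0.21 (SE 0.32, adjusted p = 0.931, limma). The 95% interval of the fold was 0.696 to 1.91, and the range over all 8 mice was 2.58-fold. The array carries 1 probe for the gene, and the Srebf1 isoforms it detects were not worked out here.

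Mlxipl encodes ChREBP, the glucose-responsive partner of MLX. Rap1 -/- mice 1 to 4 had log2 levels of 6.70, 6.82, 6.77 and 7.19, and wild-type mice 1 to 4 had 6.71, 6.91, 7.12 and 6.76. It was the steadiest of the 10 genes, with a 1.40-fold range over all 8 mice. The log2 fold change was 0.00 (SE 0.14, exact permutation p = 0.971, two-sided, n = 4 each), with a 95% interval of 0.799 to 1.25 for the fold. The interval was the narrowest among the 10 genes. With 4 mice against 4, the smallest p the exact test allows is 0.0286.

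Acly encodes ATP citrate lyase, which splits cytosolic citrate into the acetyl-CoA used for synthesis. Its log2 level was 7.12, 6.47, 7.03 and 7.36 in Rap1 -/- mice 1 to 4 and 6.46, 7.54, 7.01 and 5.96 in wild-type mice 1 to 4. The 4 Rap1 -/- values lay inside the span of the wild-type values. Means were 6.996 ± 0.380 in Rap1 -/- and 6.74 ± 0.68 in wild-type livers (SD, n = 4 each), which differed by 0.25 log2 units (SE 0.33, adjusted p = 0.914, limma). A second probe, A_55_P2082914, gave 0.06 (SE 0.36).

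Me1 encodes cytosolic malic enzyme, a source of the NADPH that fatty acid synthesis consumes. Rap1 -/- mice 1 to 4 had log2 levels of 5.24, 4.88, 5.28 and 6.06, against 4.88, 5.80, 5.59 and 5.35 in wild-type mice 1 to 4. The highest value was again that of Rap1 -/- mouse 4, and the other Rap1 -/- mice lay within the wild-type span. The difference was -0.04 on the log2 scale (SE 0.27, adjusted p = 0.992, limma), and the other 2 probes gave -0.20 and -0.02.

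Acaca encodes acetyl-CoA carboxylase 1, which makes malonyl-CoA in the committed step of the pathway. Its log2 level was 5.72, 5.14, 5.32 and 5.96 in Rap1 -/- mice 1 to 4, against 5.15, 6.35, 5.86 and 4.98 in wild-type mice 1 to 4. All Rap1 -/- values lay between the lowest and the highest wild-type value. Rap1 -/- minus wild-type, the log2 difference was -0.05 (SE 0.31, adjusted p = 0.991, limma), with -0.14 and -0.20 from the other 2 probes.

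Fasn encodes fatty acid synthase, which builds palmitate from malonyl-CoA. Rap1 -/- mice 1 to 4 had log2 levels of 3.31, 2.64, 2.96 and 4.01, and wild-type mice 1 to 4 had 2.52, 4.41, 3.26 and 2.04. The wild-type mice alone spanned the whole 5.17-fold range, since wild-type mouse 2 was the highest and wild-type mouse 4 the lowest of all 8. Means were 3.23 ± 0.59 in Rap1 -/- and 3.06 ± 1.03 in wild-type livers (SD, n = 4 each), a log2 fold change of 0.17 (SE 0.50, adjusted p = 0.976, limma). The 95% interval of the fold was 0.515 to 2.46, which takes in a 2-fold difference upward and stops just short of a 2-fold difference downward.

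Elovl6 encodes the elongase that carries palmitate to stearate. Its log2 level was 5.25, 4.76, 5.18 and 5.95 in Rap1 -/- mice 1 to 4 and 4.26, 6.16, 5.46 and 4.27 in wild-type mice 1 to 4. As with Fasn, the wild-type mice held both the highest and the lowest values. The genotypes differed by 0.25 log2 units (SE 0.44, adjusted p = 0.941, limma).

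Scd1 encodes stearoyl-CoA desaturase 1, which makes monounsaturated fatty acids. Rap1 -/- mice 1 to 4 had log2 levels of 7.65, 7.45, 7.87 and 8.04, and wild-type mice 1 to 4 had 7.81, 8.23, 8.30 and 7.41. Means were 7.75 ± 0.26 in Rap1 -/- and 7.94 ± 0.41 in wild-type livers (SD, n = 4 each). The log2 fold change of -0.18 (SE 0.22, adjusted p = 0.904, limma) was the lowest estimate of the 10, and 3 of the 4 Rap1 -/- values lay below the wild-type mean.

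Thrsp encodes Spot 14, a small thyroid hormone-responsive protein tied to lipogenic enzymes. Its log2 level was 7.40, 6.34, 6.21 and 7.99 in Rap1 -/- mice 1 to 4, against 5.50, 7.82, 7.51 and 5.88 in wild-type mice 1 to 4. Each genotype fell into a high and a low pair of mice. The mean was 6.98 ± 0.86 in Rap1 -/- and 6.68 ± 1.16 in wild-type livers (SD, n = 4 each), a log2 fold change of 0.31 (SE 0.60, adjusted p = 0.951, limma). That was the highest estimate of the 10, and it had the widest interval, 0.480 to 3.18 for the fold.

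Pnpla3 encodes a lipid droplet protein and is induced strongly by carbohydrate feeding. Rap1 -/- mice 1 to 4 had log2 levels of -1.14, 0.50, 0.67 and 1.42, and wild-type mice 1 to 4 had -0.65, 1.30, -0.33 and 0.07. Its processed signal, 99.6 to 609 in Rap1 -/- and 114 to 477 in wild-type livers, was well above background on each array. The log2 fold change was 0.27 (SE 0.57, adjusted p = 0.959, limma). A second probe, A_55_P2025514, read -2.03, -1.39, -0.42 and -0.55 in Rap1 -/- mice 1 to 4, against -0.25, -0.19, -0.90 and -1.66 in wild-type mice 1 to 4. It gave -0.35 (SE 0.43), so the probes of Pnpla3 disagreed in sign, each with an error larger than its estimate.

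The intervals of all 10 genes took in 0, as the plot of differences shows. Within slide 1, 8 of the 10 estimates were below 0 and their median was -0.24. Within slide 2, all 10 were above 0 and the median was 0.39. Each slide held 2 mice per genotype. The 10 genes largely moved together between mice, so their signs are not separate readings. The share of all genes above 0 within each slide was not worked out. Without Rap1 -/- mouse 4 the median over both slides was -0.09, without wild-type mouse 2 it was 0.41, and without wild-type mouse 1 or wild-type mouse 4 it was -0.03 and -0.02.

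**Figure D2:**
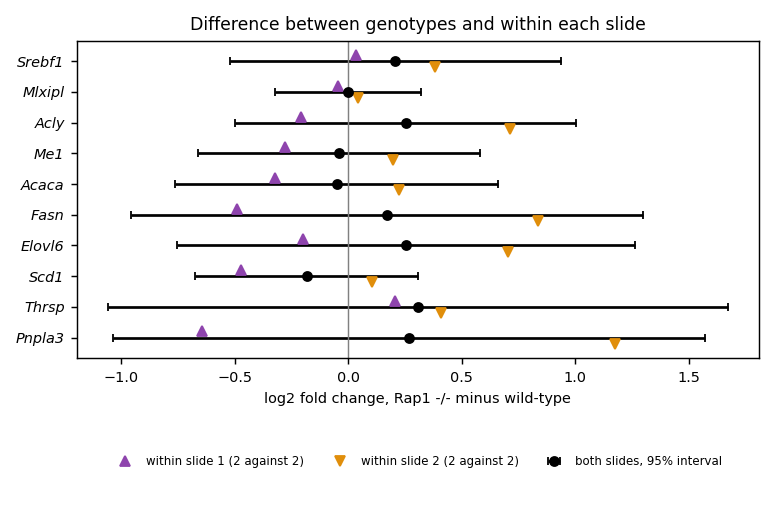
Log2 fold change, Rap1 -/- minus wild-type, of the 10 lipogenic genes with the 95% interval over 8 arrays (black), and the same difference within slide 1 (purple) and slide 2 (orange), 2 arrays per genotype each. Every interval takes in 0, and the slide 2 estimate lies to the right of the slide 1 estimate in every gene.

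The lipogenic genes varied widely between mice of the same genotype. The median SD within genotypes was 0.54 on the log2 scale over the 10 genes, against 0.21 over all genes, and 9 of the 10 varied more than the median gene. For Thrsp, 99.2% of tested genes varied less within genotypes, for Fasn 98.2% and for Srebf1 92.4%, whereas for Mlxipl the share was 47.5%. With each gene centred on its mean, the 10 genes averaged -0.02, -0.34, -0.08 and 0.68 in Rap1 -/- mice 1 to 4 and -0.56, 0.68, 0.23 and -0.59 in wild-type mice 1 to 4. Rap1 -/- mouse 4 and wild-type mouse 2 were above the gene's own mean in 10 of 10 genes, while wild-type mice 1 and 4 were above it in 0. The array of wild-type mouse 4 also had the largest share of probes well above background, 65.3%, with 57.5% the next highest. The part of this array difference in its low levels was not tested.

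**Figure D3:**
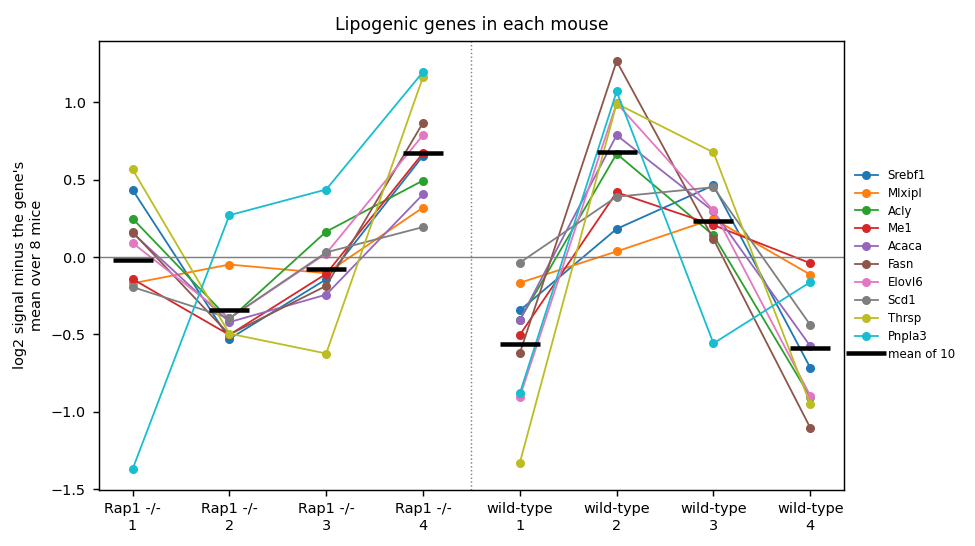
Log2 signal of each lipogenic gene minus its mean over 8 mice, in Rap1 -/- mice (left) and wild-type mice (right), with black bars for the mean of the 10 genes. The bars stand at 0.68 in Rap1 -/- mouse 4 and 0.68 in wild-type mouse 2, and at -0.56 and -0.59 in wild-type mice 1 and 4; lines join mice of 1 genotype, which have no order.

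Pearson's r was above 0 in all 45 pairs of the 10 genes over the 8 mice, with a median of 0.76. These values describe 8 arrays that share their scaling. The highest was 0.97 between Fasn and Elovl6, the synthase and the elongase that extends its product. Pnpla3 stood apart, with a median r of 0.40 to the other 9 genes and its lowest value, 0.10, with Srebf1.

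Each of the other 9 genes, Mlxipl included, was set against Srebf1 across the 8 mice, giving 9 relations. Pearson's r passed an adjusted p of 0.05 for 5 of them, Thrsp, Acly, Acaca, Elovl6 and Fasn, each at an adjusted exact permutation p of 0.0325. None passed in the authors' table (smallest adjusted exact p = 0.0535) or after normexp and quantile normalization (0.0531), where r of the 5 was 0.77 to 0.83. With the mean of its 3 probes Acaca did not pass (r = 0.74, adjusted exact p = 0.0663). Thrsp had r = 0.88 (exact permutation p = 0.0118) and Spearman's rho = 0.81 (exact permutation p = 0.0218). Acly had r = 0.85 (exact p = 0.00791) and rho = 0.74 (exact p = 0.0458), and Acaca had r = 0.83 (exact p = 0.0169) and rho = 0.86 (exact p = 0.0107). Elovl6 had r = 0.81 (exact p = 0.0181) and rho = 0.79 (exact p = 0.0279), and Fasn had r = 0.80 (exact p = 0.0180) and rho = 0.81 (exact p = 0.0218). By rank no relation passed the adjustment, the smallest adjusted exact p being 0.0628, although 6 of the 9 had an unadjusted exact p under 0.05. For neither r nor rho was the share of all tested genes with such a p worked out, so these counts have no background.

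For the other 4 genes r was 0.72 for Scd1 (adjusted exact p = 0.0740), 0.70 for Me1 (0.0740), 0.65 for Mlxipl (0.0972) and 0.10 for Pnpla3 (0.799). Their rho values were 0.76 (exact p = 0.0368), 0.60 (exact p = 0.132), 0.52 (exact p = 0.197) and 0.19 (exact p = 0.665). As background, the median r of Srebf1 with all tested genes was -0.01, and 0.868% of them had an r as high as that of Thrsp and 2.70% one as high as that of Fasn. Centred on genotype, r was 0.88 for Thrsp, 0.87 for Acaca, 0.85 for Acly, 0.81 for Elovl6 and 0.80 for Fasn. Centred on slide, these values were 0.88, 0.85, 0.87, 0.81 and 0.83.

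The relations were read again over fewer mice. Leaving out Rap1 -/- mouse 4 and wild-type mouse 4, the arrays farthest from the median of Srebf1, r over 6 mice was 0.82 for Thrsp, 0.76 for Acaca, 0.73 for Acly, 0.66 for Elovl6 and 0.61 for Fasn. It was 0.74 for Me1, 0.60 for Scd1, 0.45 for Mlxipl and -0.29 for Pnpla3. None of the 9 then passed, with a smallest adjusted exact permutation p of 0.260, so the 5 calls did not hold without this pair of mice. No other mice were left out of these relations. Both the number of mice and the span of Srebf1 were smaller in this reading, and their parts were not tested. The plot of these genes against Srebf1 shows mice of both genotypes at low and at high levels.

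**Figure D4:**
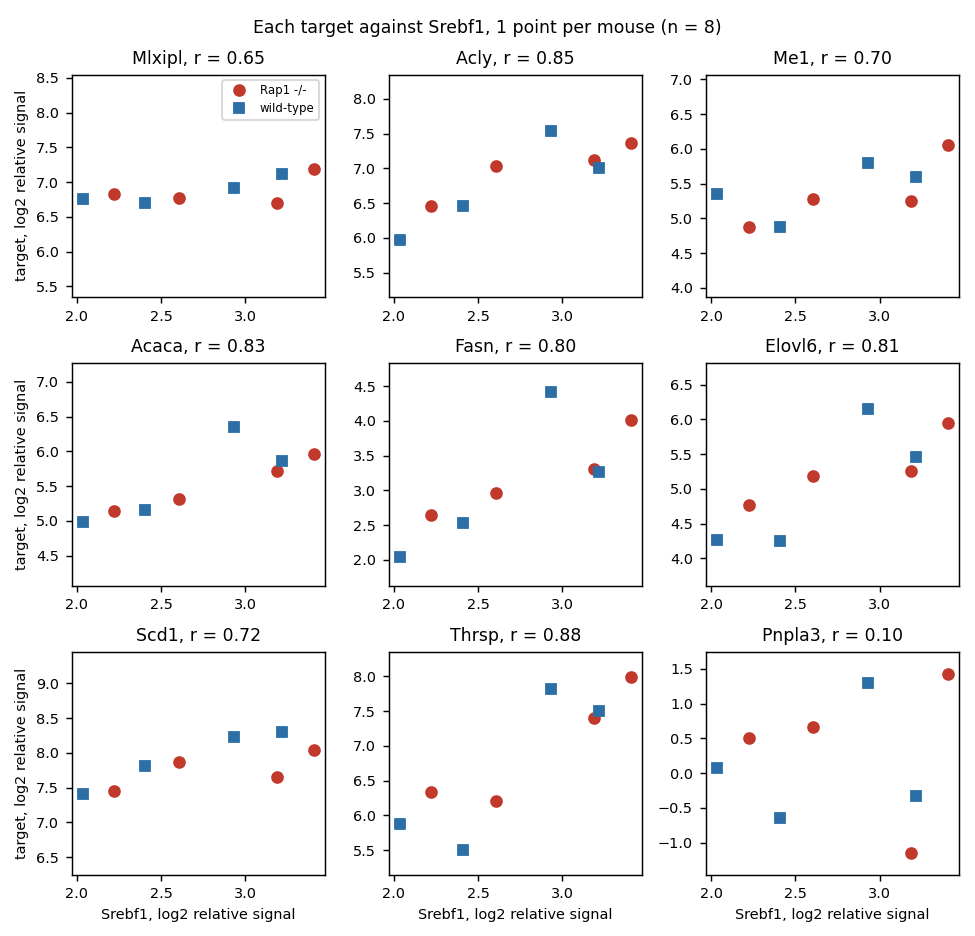
Log2 relative signal of 9 lipogenic genes against that of Srebf1, with 1 point per mouse, circles for Rap1 -/- and squares for wild-type (n = 8), and Pearson's r above each panel. Points rise to the right for all genes but Pnpla3 (r = 0.10), and mice of both genotypes are found at both ends of each panel.

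Of all tested genes, those most like Srebf1 across the 8 mice were Jarid2 (r = 0.98), Tmem223 (0.97), Map2k6 (0.97), Dsc2 (0.96) and Mia2 (0.96). Among those most like Mlxipl were Tnks2 (0.97), Topors (0.97), Phlpp2 (0.96) and Atxn2l (0.95). None of the lipogenic targets was among them.

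The wider pathway was read in 8 lists of 81 genes, all tested. None passed (limma), and 3 had an unadjusted p under 0.05, or 3.7% beside 6.36% of all genes, with a median log2 fold change of 0.03. Among transcription partners of SREBP1c and ChREBP, Nfyb, a subunit of the CCAAT-binding factor NF-Y, averaged 1.62 ± 0.18 in Rap1 -/- and 1.27 ± 0.04 in wild-type livers (SD, n = 4 each). It was the 1 gene of the 81 whose genotypes did not overlap, beside 4.31% of all genes, and the log2 fold change was 0.35 (SE 0.11, adjusted p = 0.769, limma). In the same list Sp1, whose product binds GC boxes, gave 0.19 and Usf1, an E-box factor, gave -0.21.

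Among genes for citrate, acetyl-CoA and NADPH supply, G6pdx, the entry enzyme of the pentose phosphate pathway, gave -0.47 (SE 0.19, adjusted p = 0.769, limma). Mdh1, cytosolic malate dehydrogenase, gave 0.23 and Pdha1, a subunit of pyruvate dehydrogenase, 0.24. Of 9 genes in that list 8 were above 0, as were 56.1% of all genes and 49 of the 81 pathway genes. Among other enzymes of fatty acid synthesis, elongation and desaturation, Hsd17b12, the ketoreductase of the elongation cycle, gave 0.28 (SE 0.11, adjusted p = 0.769, limma), and 14 of the 15 were above 0, with a list median of 0.08. Elovl2, an elongase of polyunsaturated fatty acids, was the exception at -0.23.

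The SREBP escort and cleavage list had a median of 0.11 over 6 genes, with Scap, the escort protein, at 0.13 and Insig1, which retains the complex in the endoplasmic reticulum, at 0.31. Insulin and mTORC1 signalling had a median of -0.02 over 11 genes, with Irs1, a docking protein of the insulin receptor, at -0.14. AMPK and other inhibitors of lipogenesis gave 0.04 over 7 genes. Glycolysis and other ChREBP targets gave 0.00 over 8 genes, with Slc2a2, the glucose transporter of hepatocytes, at 0.20. Glycerolipid synthesis and lipid droplets gave 0.01 over 12 genes, with Gpam, the acyltransferase of the first step, at 0.44 (SE 0.24).

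Sterol genes driven by the related factor SREBP2 were the nearest comparison. Of 12, none passed and 3 had an unadjusted p under 0.05, Lss, Cyp51 and Hmgcs1, all enzymes of cholesterol synthesis, where 6.36% of all genes did so. Hmgcs1 had log2 levels of 8.54, 8.10, 8.19 and 8.06 in Rap1 -/- mice 1 to 4, against 7.14, 8.30, 7.80 and 6.84 in wild-type mice 1 to 4. Wild-type mice 1 and 4, the livers low in lipogenic genes, were the lowest here as well, while the Rap1 -/- livers were near one another. The log2 fold change was 0.70 for Hmgcs1 (SE 0.30), 0.69 for Lss and 0.57 for Cyp51, each at an adjusted p of 0.769 (limma), and the list median was 0.40 beside 0.19 for the lipogenic genes. The difference between these medians was not tested.

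Genes that move with feeding and with time of day were read beside the lipogenic ones. The 12 fasting genes had a median log2 fold change of -0.06 with 0 passing (limma, 0 also at an unadjusted p of 0.05). Their median r with Srebf1 was -0.36, with 9 below 0 and 3 above. The 1 fasting gene with an unadjusted exact permutation p of r under 0.05 ran the other way. It was Ppargc1a, with r = 0.74 (exact permutation p = 0.0337) and rho = 0.79. Of 12 clock genes 10 were tested, none passed at an adjusted or an unadjusted p of 0.05 (limma), and their median was -0.19. Arntl, which encodes the core activator BMAL1, was well above background on 3 of the 4 Rap1 -/- arrays and all 4 wild-type arrays, and the values below include the array where it was not. It read -3.60, 0.07, -0.82 and -3.11 in Rap1 -/- mice 1 to 4, against -1.48, -3.02, -3.77 and -1.37 in wild-type mice 1 to 4. Dbp, an output gene in opposite phase to Arntl, read 7.10, 4.49, 6.14 and 6.90 in Rap1 -/- mice 1 to 4, against 6.25, 6.84, 7.28 and 5.94 in wild-type mice 1 to 4. In both genotypes the mice high in Arntl were the ones low in Dbp and low in Srebf1.

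Across the 8 mice r with Srebf1 was -0.86 for Arntl, -0.86 for Clock, 0.88 for Tef, 0.86 for Nr1d2, 0.84 for Per2, 0.82 for Per3, 0.82 for Ciart and 0.80 for Dbp, but 0.59 for Per1 and -0.39 for Nr1d1. Spearman's rho was -0.81 for Arntl, -0.74 for Clock, 0.74 for Tef, 0.83 for Nr1d2, 0.57 for Per2, 0.74 for Per3, 0.69 for Ciart, 0.88 for Dbp, 0.67 for Per1 and -0.38 for Nr1d1. Unadjusted exact permutation p values of r were under 0.05 for 8 of the 10 clock genes and for 30 of the 115 genes of all other lists, clock genes included. The share of all tested genes with such a p was not worked out. As background, 2.65% of tested genes had an r with Srebf1 as high as that of Dbp and 0.910% one as high as that of Tef. For Arntl and for Clock, whose r was below 0, 99.6% of tested genes had an r as high or higher. None of the 115 genes of the other lists passed the adjustment over 115 relations, and the smallest adjusted exact permutation p was 0.109. By list, the median r was 0.81 for clock genes, of which 7 were above 0 and 3 below, 0.67 for sterol genes, all 12 above 0, and 0.63 for glycolysis and other ChREBP targets. The part of the clock, of feeding and of the array scaling in the spread of the lipogenic genes was not tested.

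**Figure D5:**
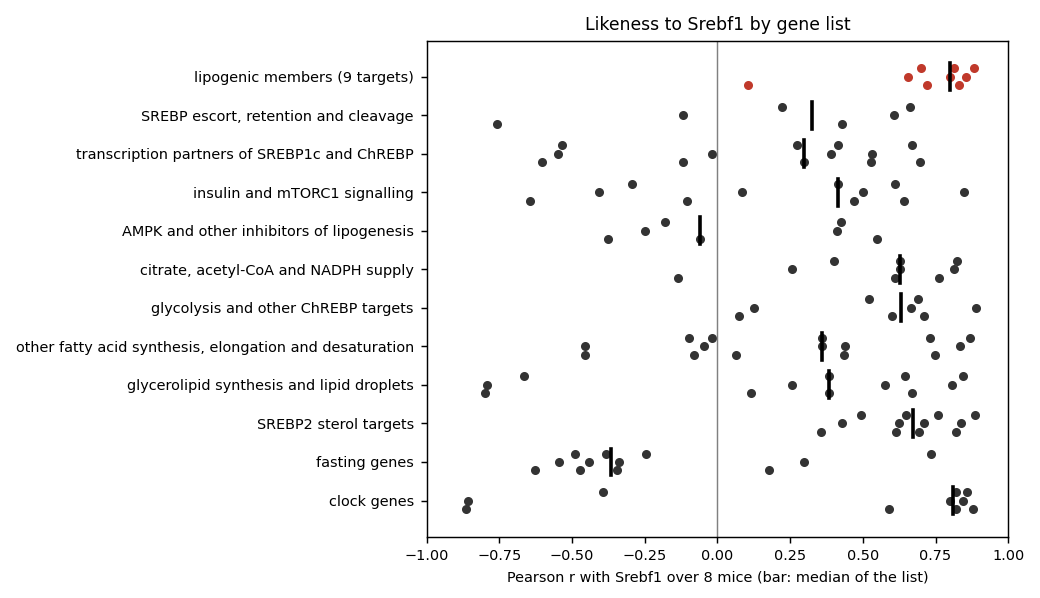
Pearson's r with Srebf1 over the 8 mice (both genotypes) for the 9 lipogenic genes (red) and for 11 other lists, 1 point per gene, with a bar at the median of each list. The medians are 0.80 for the lipogenic genes, 0.81 for clock genes, 0.67 for sterol genes and -0.36 for fasting genes.

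The tissue label was checked against cell markers. All 10 hepatocyte markers were tested, and 5 gave estimates above 0 and 5 below. Their summed signal, in multiples of the 75th percentile, was 5935 to 6189 in Rap1 -/- and 6400.1 to 7121 in wild-type livers. These ranges did not overlap, and the sum weights the brightest probes most. The 75th percentile was lower in every wild-type array than in any Rap1 -/- array, and the part of this scaling was not tested. Of these markers Alb gave -0.21 and Serpina1c -0.20, whereas Cps1 gave 0.25 and Fah 0.18, and the list median was -0.0028. For the lipogenic genes the same sum was 561 to 1049 in Rap1 -/- and 500.0 to 1073 in wild-type livers. Of 10 adipocyte markers 5 were tested, and the defining ones, Adipoq, Plin1 and Lep, were well above background on at most 2, 1 and 0 arrays. The 5 tested had a summed signal of 10.4 to 15.8 in Rap1 -/- and 9.09 to 13.3 in wild-type livers. Bile duct markers summed to 5.36 to 10.5 in Rap1 -/- and 4.27 to 6.26 in wild-type livers. Their part in the lipogenic values was not tested, and in whole tissue fewer cells of a type and less RNA per cell cannot be told apart.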

How the data were processed

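The scanner values are linear Cy3 intensity from Agilent Feature Extraction 10.7.3.1, per the file headers. The processed signal is a background-subtracted intensity that the authors deposited without normalization between arrays. A second table deposited by the authors holds log2 values, for which the submitters' processing notes name limma. That table differed from normexp (offset 50) and quantile normalized scanner values by a median of 0.00154, with 99.5% of values within 0.05. Its column medians were 6.39 to 6.40.

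Of 62976 spots per array, 59305 were no controls, for 55681 probes. Outlier spots were left out, repeated spots averaged on the log2 scale, and each array's 75th percentile subtracted. Each array had 50.03% to 65.3% of its probes well above background and 0 saturated spots. Precision is limited by the number of arrays. Symbols came from RefSeq accessions for 26056 probes. Probes well above background on at least 4 of 8 arrays were tested (31051), and the one with the highest mean stood for its gene (14062 genes).

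Genotypes were compared without covariates by the lmFit and eBayes functions of limma 3.58.1 under R 4.3.3, with Benjamini-Hochberg adjustment. Differences are Rap1 -/- minus wild-type. Exact tests are two-sided, over the 70 partings of 8 arrays or, for correlations, all 40320 pairings. On simulated arrays for 14062 genes the comparison found 30.7% of shifts of 1.5-fold, 68.4% at 2-fold and 93% at 4-fold, and called 0.0418% of genes without a shift. The shifted genes were drawn at random from all genes, each with its own SD and independent noise. The lipogenic genes had a median SD within genotypes of 0.54, against 0.21 over all genes, so these rates do not apply to them.

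Members and lists were chosen with earlier results of these data known. Named genes are the 10 members, the 5 genes most like each regulator, up to 3 genes per pathway list with the smallest p, Terf2ip, and genes of described fasting, clock and marker lists. Some genes this rule names are not reported here. Alternatives were other backgrounds and scalings, filters on dim probes, the mean of a gene's probes, another variance model, blocks, single slides and left-out mice. Normexp used median spot signals, since the files used hold no mean signal.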

Additional observations from a re-analysis of the deposited data

Results flagged for a closer look

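In each genotype the 16 probes were searched for a mouse far from the other 3, as a gap to the nearest mouse divided by the whole range and held against Dixon's 95% critical value. Of 32 groups 1 passed. It was a dim probe of Acaca, A_55_P2084703, in Rap1 -/- livers, where mouse 4 read -1.97 and the nearest mouse -2.31, a ratio of 0.865. Chance flags about 1 in 20 such groups. The same mouse was the highest Rap1 -/- liver for all 10 genes by their main probes.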

How the results depend on the processing

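No lipogenic gene passed under any of 19 alternatives, where the lowest adjusted p was 0.797 (limma), and 160 of 190 differences kept their direction. The blocks and the other variance model cannot change a difference in this balanced design. The filters left the probe of each lipogenic gene unchanged. Differences under those settings therefore count as kept by construction. The count of all genes passing, 2 as reported, was 0 with normexp and quantile normalization, 0 with the authors' table, 0 within slide 1, and 1 with quantile normalization, without a filter, with the filter on all 8 arrays, with slide as a block, within slide 2 and without any 1 mouse (1 to 1). It was 3 with the mean of a gene's probes and 3 with the trended and robust variance. Replicate numbers did not pair the mice (correlations of same-numbered mice -0.18 to 0.10), and the replicate block gave 0 genes. The median over the 10 genes was 0.19 under the block too, which a balanced block cannot change.

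Differences turned sign for Pnpla3 with the mean of its probes (-0.040). They did so within slide 1 for Fasn (-0.49), Acly (-0.21), Elovl6 (-0.20) and Pnpla3 (-0.65), and within slide 2 for Mlxipl (0.041), Acaca (0.22), Scd1 (0.11) and Me1 (0.20). Leaving out 1 mouse at a time, the log2 fold change ran from -0.11 to 0.080 for Mlxipl, -0.17 to 0.62 for Fasn, -0.25 to 0.20 for Acaca, -0.0078 to 0.52 for Acly, -0.0068 to 0.63 for Elovl6, -0.27 to 0.12 for Me1, -0.089 to 0.77 for Pnpla3 and -0.086 to 0.69 for Thrsp. Srebf1 stayed between 0.00 and 0.42 and Scd1 between -0.36 and -0.06.

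The count of Srebf1 relations passing, 5 as reported, was 0 with normexp and quantile normalization (smallest adjusted exact permutation p = 0.0531), 0 with the authors' table (0.0535) and 0 without the extreme mice (0.260), where Pnpla3 gave -0.29. It was 5 with quantile normalization of the processed signal and 4 with the mean of probes, which lost Acaca (r = 0.74, adjusted exact permutation p = 0.0663). In the authors' table r was 0.83 for Thrsp, 0.82 for Acly, 0.79 for Elovl6, 0.78 for Fasn and 0.77 for Acaca. The cause of these changes was not tested. With 4 mice per genotype, the 95% interval reached 2-fold upward in 5 of the 10 genes, Acly, Fasn, Elovl6, Thrsp and Pnpla3. It also reached 2-fold downward for Thrsp (lower end of the fold 0.480) and Pnpla3 (0.487).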
